A study of Mus musculus with 24 samples.

Results

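The 10 genes described here in mouse liver belong to the bone morphogenetic protein (BMP) and hepcidin axis: the ligand gene Bmp6, the target genes Id1, Id2, Id3 and Atoh8, the inhibitory SMAD genes Smad6 and Smad7, the hepcidin genes Hamp and Hamp2, and the transferrin receptor gene Tfrc. They were found by symbol, and all 10 were present among the 15741 genes listed in the deposited tables. The set was chosen by the level of Id1, which was higher on the leucine-free diet in GCN2 knockout mice at circadian time 15 (CT15). The values of that diet pair are therefore a description with no test, for all 10 genes.

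The study measured liver RNA by sequencing in mice that lacked GCN2 in the whole body (KO) and in wild-type mice (WT). GCN2, encoded by Eif2ak4, is a kinase that senses uncharged transfer RNA and slows translation when amino acids run short. Mice ate a diet without leucine (LeuD) or a control diet (Control), were kept in constant darkness for 8 days, and were killed in the subjective night (CT15) or the subjective day (CT03). There were 8 groups of 3 mice: KO LeuD, KO Control, WT LeuD and WT Control at CT15, and the same 4 at CT03. For every mouse the labels listed 2 adjustment days, a 12 h light-dark cycle and a darkness start at 24 h. No strain, sex or age was given in the sources used here. The libraries held 34137121 to 44884200 reads assigned to genes. Values below are normalized counts, which are reads divided by a size factor for the library's depth. Such values can be compared between mice for 1 gene, not between genes.

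BMP6, made largely by the sinusoidal endothelial cells of the liver, acts on hepatocytes through receptors that phosphorylate SMAD proteins. The SMAD complex turns on hepcidin together with the Id genes, Atoh8, Smad6 and Smad7, and the products of the last pair feed back to dampen the signal. Hepcidin enters the blood and makes cells degrade the iron exporter ferroportin, so less iron leaves the gut and stores. Inflammation raises hepcidin by a second route through STAT3.

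The hepatocyte marker genes took 90248 to 191185 RPM (reads scaled to a common library total) in all, and all 10 had reads in every library. In KO LeuD livers at CT15 they took 168286 to 191185 RPM, against 125871 to 140413 RPM in KO Control livers at CT15. Eif2ak4 had normalized counts of 243 to 462 in the KO livers and 287 to 349 in the WT livers. Its reads are summed over the whole gene, so these values say nothing on a deleted exon and do not check the genotype labels. There were 5 libraries that held more than 200 RPM of pancreas acinar genes. They were KO LeuD CT15 replicate 3, KO Control CT15 replicate 1, WT LeuD CT15 replicate 1, KO LeuD CT03 replicate 1 and KO Control CT03 replicate 3, and log2 differences from comparisons that hold any of them are also given without them, as values without the acinar-rich libraries. In whole liver, fewer cells of a type and less RNA per cell cannot be told apart.

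The stretches shown here hold GGCGCC, the core of the BMP response element known from target genes of the pathway, within the 250 bases before the start. They come from RefSeq promoters on GRCm38.p6, in which 6 of the 10 genes were searched, with 7 promoter entries. Id1 and Smad7 were among the genes with no entry there, which were not searched. Hamp and Hamp2 were not both searched, so a gene not named below may lack an entry rather than a match. The Id2 stretch lies at chr12:25096298-25096342 on the minus strand and the Tfrc stretch at chr16:32608787-32608832 on the plus strand, with the motif in capitals.
Id2: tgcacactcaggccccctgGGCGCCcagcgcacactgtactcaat
Tfrc: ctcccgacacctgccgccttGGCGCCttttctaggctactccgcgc
GGCGCC reads the same on both strands, and 2 of the 6 genes held it, beside 9.59% of 32851 mouse promoters. An E-box that clock factors can bind, CACGTG, reads the same on both strands and was found in Atoh8 and Bmp6 and in 6.02% of promoters. On both strands, CAGAC, a short SMAD box, was found in Id3 and Bmp6 and in 42.2% of promoters. TGATGNAA, the element bound by ATF4 downstream of GCN2, was searched on both strands and found in 0 of 6 genes and in 3.45% of promoters. A STAT site, TTCNNNGAA, was found in 0 of 6 genes and in 7.02% of promoters. A match is a description of the letters, not of binding.

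Bmp6 and the diet come first, as the ligand stands at the head of the pathway. Bmp6 had 380, 443 and 395 normalized counts in KO LeuD livers at CT15, against 482, 326 and 415 in KO Control livers at CT15. It had 434, 531 and 437 in WT LeuD livers at CT15, against 443, 363 and 437 in WT Control livers at CT15. Both pairs overlapped. At CT03 it had 371, 467 and 522 in KO LeuD livers, against 369, 386 and 417 in KO Control livers. WT LeuD livers at CT03 had 421, 506 and 564, against 344, 448 and 312 in WT Control livers. No diet pair of Bmp6 was free of overlap, and its span over all 24 mice, 1.81-fold, was narrow beside the 9.29-fold span of Id1. Summed genes of the sinusoidal endothelium, the source of BMP6, took 556 to 770 RPM in KO LeuD livers at CT15 and 785 to 1055 RPM in KO Control livers at CT15. All 18 endothelial markers had reads in every library, and their part in the Bmp6 values was not tested.

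**Figure D1:**
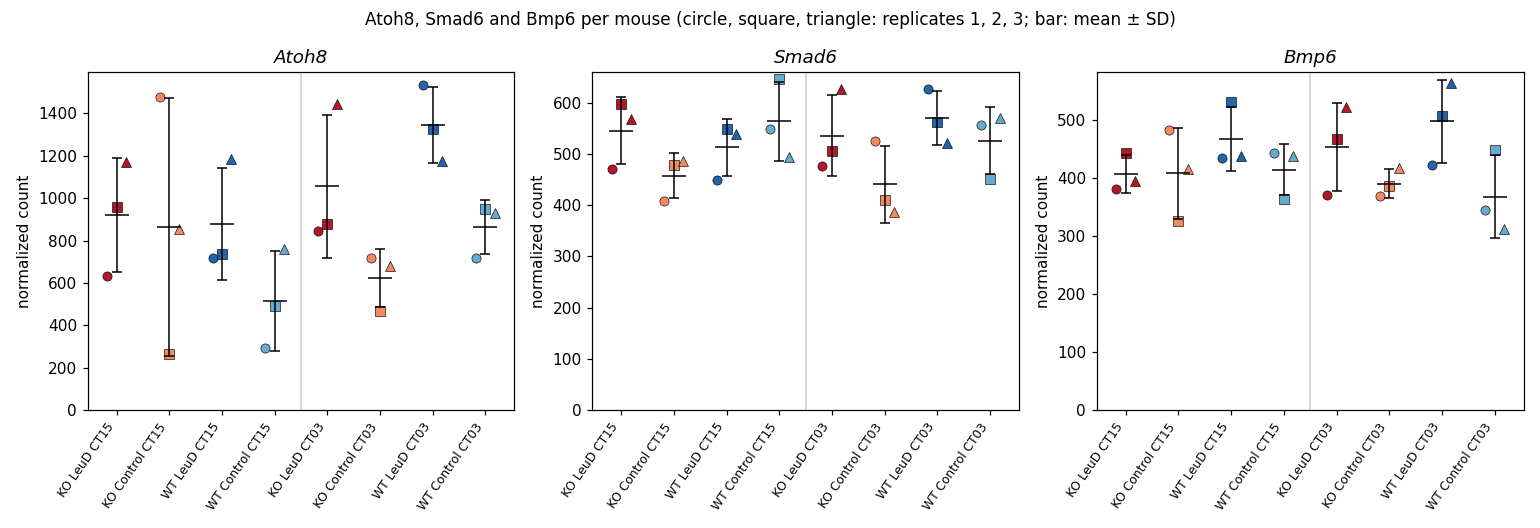
Normalized counts (vertical axes, from 0) of Atoh8, Smad6 and Bmp6 in each mouse of the 8 groups; circles, squares and triangles are replicates 1, 2 and 3, and bars are the mean ± SD. Atoh8 was 1177 to 1532 in WT LeuD livers at CT03 and 716 to 949 in WT Control livers at CT03, while Smad6 and Bmp6 stayed within narrow spans.

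Id1 encodes a helix-loop-helix protein without a DNA-binding region, which blocks other factors by pairing with them, and is a standard readout of BMP signalling. At CT15 it had 1251, 1510 and 1464 normalized counts in KO LeuD livers, against 348, 233 and 346 in KO Control livers. All 3 KO LeuD livers stood above every KO Control liver. This is the pair that chose the genes, and the log2 difference of 2.20 ± 0.20 (SE) is given with no test. In that pair, 5 of the 10 genes were higher without overlap between groups: Id1, Id2, Id3, Smad7 and Hamp. Over all genes tested in the pair, 12.2% were higher without overlap. Without the acinar-rich libraries the Id1 difference was 2.27.

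In WT livers at CT15, Id1 had 639, 547 and 1048 normalized counts on LeuD, against 401, 358 and 259 on Control. The groups did not overlap. The log2 difference was 1.10 ± 0.26 (SE), with an adjusted p of 0.16 in limma (threshold 0.05), and DESeq2 gave an adjusted p of 0.00148. At CT03, Id1 had 495, 467 and 1308 in KO LeuD livers, against 535, 255 and 163 in KO Control livers. In WT at CT03 the LeuD livers had 1254, 508 and 241, against 728, 326 and 351 in WT Control livers. At CT03 1 mouse of each LeuD group stood far above its group: replicate 3 in KO and replicate 1 in WT. The log2 differences at CT03 were 1.25 ± 0.53 in KO and 0.29 ± 0.54 in WT, with adjusted p of 0.339 and 0.824 in limma. With the acinar-rich libraries left out, the difference was 1.18 in WT at CT15 and 1.08 in KO at CT03 (adjusted p 0.319 and 0.722 in limma). By group mean, Id1 was highest in KO LeuD livers at CT15, at 1408 ± 138, followed by KO LeuD livers at CT03, at 757 ± 478, and WT LeuD livers at CT15, at 745 ± 267 (SD, n = 3 each). WT LeuD livers at CT03 came next, at 668 ± 525 (SD, n = 3). The 4 Control groups, at 309 to 469, were lower than the 4 LeuD groups by their means. Among the 7 groups below the highest, neighbours in the order differed by less than the larger SD of the pair.

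**Figure D2:**
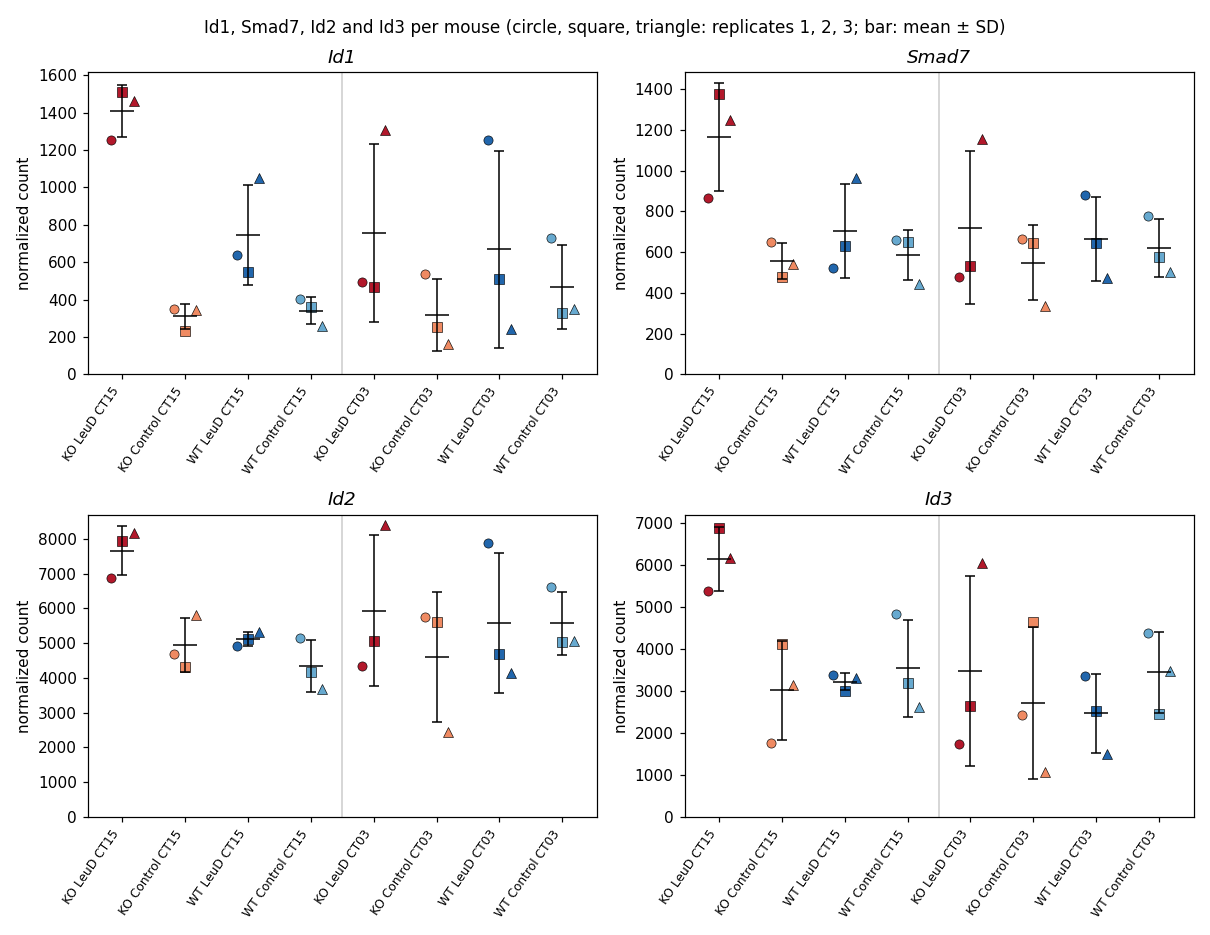
Normalized counts (vertical axes, from 0) of Id1, Smad7, Id2 and Id3 in each mouse of the 8 groups; circles, squares and triangles are replicates 1, 2 and 3, and bars are the mean ± SD. In KO LeuD livers at CT15 Id1 was 1251 to 1510, against 233 to 348 in KO Control livers at CT15, and replicate 3 of KO LeuD at CT03 stood above its group in all 4 genes.

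Id2 and Id3 encode the same kind of inhibitor. Id3 had 5371, 6881 and 6160 normalized counts in KO LeuD livers at CT15, against 1760, 4123 and 3146 in KO Control livers at CT15. The WT LeuD livers at CT15 had 3368, 2991 and 3302, against 4829, 3176 and 2612 in WT Control livers at CT15. So Id3 was higher on LeuD without overlap in KO, and the WT groups overlapped. In the 3 diet pairs that did not choose the genes, Id3 differed by -0.09 ± 0.21 in WT at CT15, 0.40 ± 0.60 in KO at CT03 and -0.52 ± 0.30 in WT at CT03 (log2, SE), and none passed the limma test. The first and second of these were -0.12 and 0.25 without the acinar-rich libraries. Id2 had 6866, 7946 and 8164 in KO LeuD livers at CT15, against 4683, 4318 and 5814 in KO Control livers at CT15. In WT at CT15, LeuD livers had 4915, 5118 and 5318, against 5150, 4183 and 3677 in WT Control livers at CT15. The Id2 groups of WT livers overlapped, with a log2 difference of 0.25 ± 0.13 and an adjusted p of 0.461 in limma, or 0.28 and 0.57 without the acinar-rich libraries. At CT03 both genes overlapped between diets in both genotypes.

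Smad7 encodes an inhibitory SMAD that blocks the receptors and is itself a BMP target. It had 866, 1377 and 1248 normalized counts in KO LeuD livers at CT15, against 650, 478 and 542 in KO Control livers at CT15. WT LeuD livers at CT15 had 521, 628 and 965, against 661, 650 and 444 in WT Control livers at CT15. The KO groups did not overlap and the WT groups did. At CT03 Smad7 had 475, 533 and 1153 in KO LeuD livers, against 663, 644 and 337 in KO Control livers. In WT at CT03, LeuD livers had 879, 645 and 471, against 778, 577 and 504 in WT Control livers. Both CT03 pairs overlapped, with log2 differences of 0.34 ± 0.39 and 0.08 ± 0.23 (SE) and adjusted p of 0.703 and 0.899 in limma. The KO difference was 0.26 without the acinar-rich libraries (adjusted p 0.884). Smad6, the other inhibitory SMAD, ranged from 386 to 646 over the 24 mice, a 1.67-fold span, and overlapped in all 4 diet pairs.

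Atoh8 encodes a basic helix-loop-helix factor known to act on the hepcidin gene. At CT03 it had 845, 877 and 1443 normalized counts in KO LeuD livers, against 720, 466 and 680 in KO Control livers. WT LeuD livers at CT03 had 1532, 1324 and 1177, against 716, 949 and 928 in WT Control livers. Neither CT03 pair overlapped. The log2 differences were 0.74 ± 0.26 and 0.64 ± 0.14 (SE), with adjusted p of 0.309 and 0.0582 in limma, and DESeq2 called the WT pair (adjusted p 0.00295). The KO difference was 0.96 without the acinar-rich libraries (adjusted p 0.676 in limma). At CT15 Atoh8 had 632, 959 and 1170 in KO LeuD livers, against 1479, 264 and 852 in KO Control livers. In WT at CT15, LeuD livers had 719, 736 and 1185, against 291, 489 and 761 in Control livers. Both CT15 pairs overlapped, and KO Control livers at CT15 spanned the widest range of any Atoh8 group.

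Hamp encodes hepcidin. At CT15 it had 75296, 43292 and 44597 normalized counts in KO LeuD livers, against 14638, 18943 and 35039 in KO Control livers. WT LeuD livers at CT15 had 40345, 47687 and 62976, against 30807, 21867 and 19098 in WT Control livers. Neither CT15 pair overlapped. At CT03 Hamp had 28907, 26622 and 51688 in KO LeuD livers, against 17424, 9420 and 14766 in KO Control livers. The WT LeuD livers at CT03 had 52970, 34606 and 24790, against 38227, 18033 and 36385 in WT Control livers. The KO pair at CT03 did not overlap and the WT pair did. The log2 differences were 1.08 ± 0.22 in WT at CT15, 1.35 ± 0.33 in KO at CT03 and 0.29 ± 0.34 in WT at CT03 (SE), with adjusted p of 0.139, 0.23 and 0.71 in limma. DESeq2 called the first of these (adjusted p 9.59e-05) and the second (adjusted p 0.0031). These were 1.23 and 1.53 without the acinar-rich libraries, with adjusted p of 0.204 and 0.623 in limma.

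Hamp2 is a paralog of Hamp in the mouse. Their GENCODE transcripts were 94.6% identical over 410 aligned bases, with an identical run of 87 bases, and how shared reads were counted is not given in the sources used here, so the split of reads between the genes is uncertain. Hamp2 had 942, 486 and 506 normalized counts in WT LeuD livers at CT15, against 1146, 814 and 3055 in WT Control livers at CT15. At CT03 it had 174, 368 and 427 in KO LeuD livers, against 1616, 461 and 334 in KO Control livers, and 511, 455 and 550 in WT LeuD livers, against 646, 474 and 776 in WT Control livers. All 3 pairs overlapped, and the log2 differences of -1.21 ± 0.47, -1.06 ± 0.60 and -0.30 ± 0.18 (SE) ran opposite to those of Hamp. Their adjusted p were 0.337, 0.442 and 0.424 in limma. Without the acinar-rich libraries the first and second were -1.51 and -1.12. KO LeuD livers at CT15 had 815, 247 and 1079, against 507, 614 and 1945 in KO Control livers at CT15.

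Tfrc encodes the receptor that takes up transferrin iron, and its messenger RNA is known to be stabilised when cells hold little iron. It had 2537, 836 and 2610 normalized counts in KO LeuD livers at CT15, against 1075, 1583 and 903 in KO Control livers at CT15. Replicate 2 of KO LeuD stood below the other two mice by more than the whole range of the KO Control group, and the groups overlapped. In the other 3 diet pairs Tfrc also overlapped, with log2 differences of 0.10 ± 0.29 in WT at CT15, 0.32 ± 0.42 in KO at CT03 and -0.18 ± 0.35 in WT at CT03 (SE), none called by limma. With the acinar-rich libraries left out, these were 0.04 in WT at CT15 and 0.72 in KO at CT03.

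**Figure D3:**
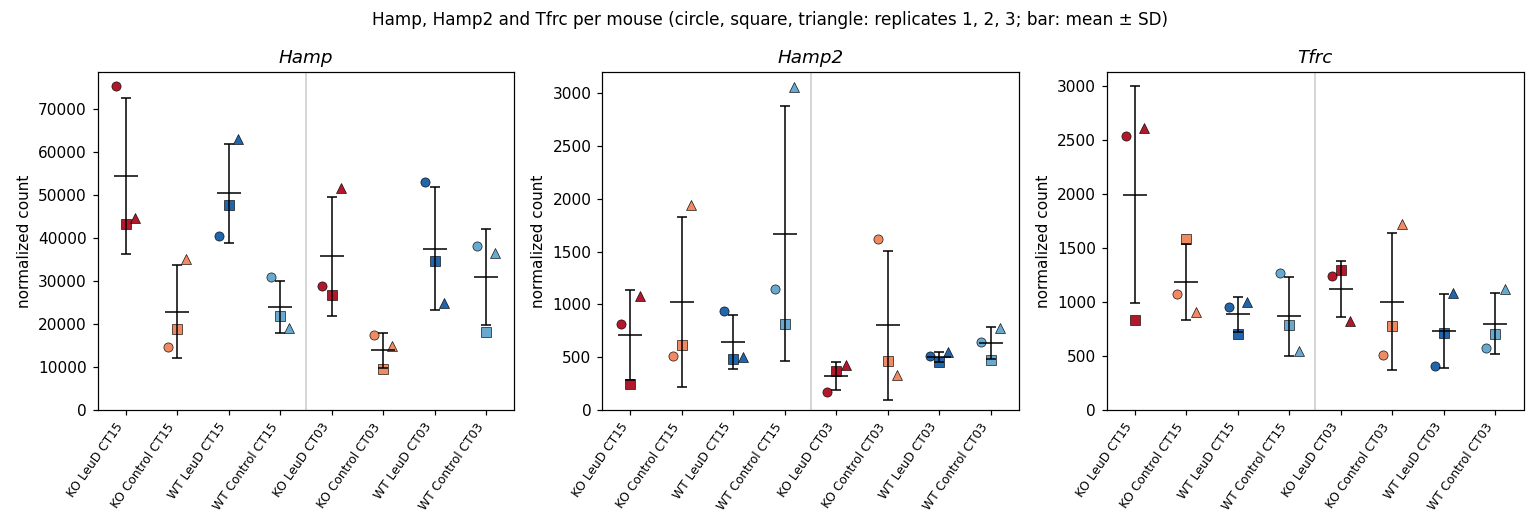
Normalized counts (vertical axes, from 0) of Hamp, Hamp2 and Tfrc in each mouse of the 8 groups; circles, squares and triangles are replicates 1, 2 and 3, and bars are the mean ± SD. Hamp was 43292 to 75296 in KO LeuD livers at CT15 and 14638 to 35039 in KO Control livers at CT15, and Tfrc in KO LeuD livers at CT15 split into 2 mice at 2537 and 2610 and 1 at 836.

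Pair by pair, limma called none of the 10 genes on diet outside the pair that chose them. In WT at CT15 that was 0 of 10, with 4 at an unadjusted p under 0.05 (13% of all genes), 0 by edgeR and 2 by DESeq2 (Id1 and Hamp). Of all genes, limma called 0.166% and DESeq2 3.52%. Id1 and Hamp were higher without overlap, as were 9.35% of genes. In KO at CT03 it was 0 of 10 beside 0 of 14888 genes called, with 3 at an unadjusted p under 0.05 (14.5% of all genes), 0 by edgeR and 1 by DESeq2 (Hamp), which called 3.49% of genes. Atoh8 and Hamp were higher there without overlap, as were 9.51% of genes. In WT at CT03 it was 0 of 10, with 2 at an unadjusted p under 0.05 (17.7% of all genes), 0 by edgeR and 1 by DESeq2 (Atoh8). Of all genes, limma called 2.23% and DESeq2 6.52%. Atoh8 alone was higher there without overlap, as were 12.1% of genes.

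Hamp and Atoh8 rose on the leucine-free diet when these 3 pairs were averaged in 1 fit of 18 mice, a comparison that holds none of the KO CT15 libraries and was added after the pairs had been seen. Hamp had 24790, 40345 and 62976 normalized counts as the lowest, median and highest of 9 LeuD livers, against 9420, 19098 and 38227 in 9 Control livers. The means were 41177 ± 13425 on LeuD and 22892 ± 9977 on Control (SD, n = 9 each), and the ranges overlapped. The average log2 difference was 0.90 ± 0.20 (SE), with an adjusted p of 0.0115 in limma. That adjusted p ran from 0.000142 to 0.0261 over the 26 alternatives. Without the acinar-rich libraries it was 1.02, with an adjusted p of 0.0246 in limma. Atoh8 had 719, 1177 and 1532 as the lowest, median and highest of the LeuD livers, against 291, 716 and 949 in the Control livers. Its average log2 difference was 0.74 ± 0.17 (SE), with an adjusted p of 0.0148 in limma, and the call was lost in a limma fit over all 24 libraries (adjusted p 0.0872), while it was held in the other alternatives, at 0.86 (adjusted p 0.0248) without the acinar-rich libraries.

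Both called genes were higher, beside 4.14% of 14494 genes called higher and 9.11% called in either direction. The median log2 difference of the 10 genes was 0.21, against 0.00 over all genes tested. Id1 averaged 0.88 ± 0.32, Bmp6 0.27 ± 0.09 and Hamp2 -0.85 ± 0.31 (log2, SE), with adjusted p of 0.0997, 0.0815 and 0.0965 in limma. DESeq2 called 3 of 10, Hamp, Atoh8 and Hamp2 (adjusted p of Hamp2 0.0341), beside 13% of all genes. With the acinar-rich libraries left out, Id1, Bmp6 and Hamp2 averaged 0.85, 0.35 and -0.98, with adjusted p of 0.18, 0.0534 and 0.0614 in limma. In limma with all 18 libraries these 3 were past 0.05 by unadjusted p only; with the called genes that made 5 of 10, beside 24.3% of all genes. Leaving out 1 mouse brought each of them under the threshold in at least 1 case. Id1 came to an adjusted p of 0.0428 in limma without replicate 3 of WT LeuD at CT03. Bmp6 came to 0.043 without replicate 2 of WT Control at CT03 and to 0.0478 without replicate 1 of KO LeuD at CT03. Hamp2 came to 0.0416 without replicate 3 of KO Control at CT03. These fits were picked by their result, so they are a description with no test. Id2, Id3, Smad6, Smad7 and Tfrc averaged 0.20, -0.07, 0.09, 0.22 and 0.08, all with an adjusted p above 0.5 in limma, or 0.14, -0.13, 0.12, 0.26 and 0.19 without the acinar-rich libraries.

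Erythroid genes moved with the diet beside Hamp. All 7 measured erythroid markers, of 9 listed, were called lower by limma in the same average fit, with a median log2 difference of -1.48. Of all 14494 genes, 721 were called lower. Summed, they took 78.3 to 177 RPM in the 9 LeuD livers and 213 to 465 RPM in the 9 Control livers, without overlap. In KO at CT15, outside that fit, they took 277, 107 and 123 RPM on LeuD and 241 to 367 RPM on Control, with overlap. None of the 7 was at 0 in any library, and their part in the Hamp difference was not tested.

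**Figure D4:**
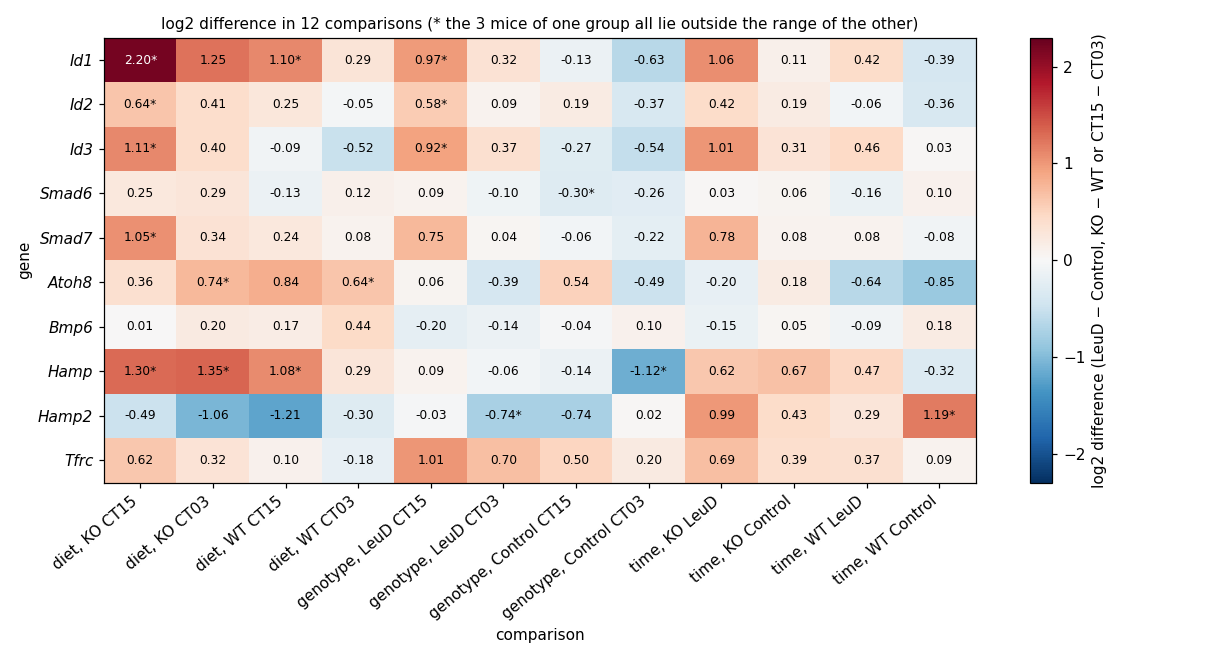
Log2 differences of the 10 genes in the 12 comparisons between 2 groups of 3 mice; colour runs by the sign and size of the difference, and a star marks groups that did not overlap. The diet pair of KO livers at CT15, on which the genes were chosen, holds 5 stars, and Hamp is positive in all 4 diet pairs.

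Over all 5 lists of other pathway genes, the same average fit called 9 of 92 measured genes (9.78%), beside 9.11% of all genes. It called 2 of 16 measured BMP ligands and antagonists. Gdf15, a stress-induced member of the wider ligand family, rose, with a median of 458 normalized counts in the LeuD livers, against 173 in the Control livers, and a log2 difference of 1.80 ± 0.32 (SE, adjusted p 0.00286 in limma). Bmp7 fell by 0.81 on the log2 scale (adjusted p 0.0288). Of 15 receptors, co-receptors and iron sensors, Hfe, a hepatocyte iron sensor upstream of hepcidin, fell by 0.18 on the log2 scale (adjusted p 0.047) and none rose. Of 23 SMAD signalling and other target genes, Skil, a SMAD corepressor that is also a target, rose by 0.49 ± 0.12 (SE, adjusted p 0.0156). Of 25 iron uptake, storage and export genes, 4 rose and 1 fell, and the median of the list was -0.01. Cp, the ferroxidase ceruloplasmin, rose by 0.43 ± 0.10, the metal importer gene Slc39a14 by 0.38 ± 0.10 and haptoglobin, Hp, by 0.64 ± 0.18 (log2, SE, adjusted p 0.0152, 0.0231 and 0.0317 in limma). Of 13 STAT3 and inflammatory inputs none was called by limma, and 5 were at an unadjusted p under 0.05. Without the acinar-rich libraries limma called 7 of the 92 (7.61%), beside 7.1% of all genes. Gdf15 (1.43), Bmp7 (-1.03), Cp (0.43) and Hp (0.70) were still called, while Hfe (-0.17), Skil (0.38) and Slc39a14 (0.29) were not (adjusted p 0.0987, 0.0581 and 0.0748). With single mice left out, Gdf15, Skil and Cp were called in all 18 fits, and the call was lost in 6 for Bmp7, 13 for Hfe, 2 for Slc39a14 and 10 for Hp.

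Between genotypes, limma called a member in 1 of the 4 comparisons of KO with WT. On LeuD at CT15, Id3 rose in KO livers relative to WT livers, at 5371, 6881 and 6160 normalized counts in KO and 3368, 2991 and 3302 in WT, without overlap. Its log2 difference was 0.92 ± 0.13 (SE), with an adjusted p of 0.0189 in limma. The KO libraries here are those of the pair that chose the genes, so for the 10 genes this comparison is not independent of that choice. Its calls and counts of the 10 genes are a description. The call was lost without the acinar-rich libraries (adjusted p 0.134), in limma over all 24 libraries (0.282) and on leaving out replicate 3 of KO (0.0647) or replicate 1, 2 or 3 of WT (0.0574, 0.0963 and 0.0593), while the difference stayed at 0.84 to 1.02. It was 1 of 10 genes called, with 5 at an unadjusted p under 0.05, beside 1.8% of all genes called and 18.4% at the unadjusted level. DESeq2 called 4 of 10, beside 7.05% of all genes, and limma without the acinar-rich libraries 0 of 10, beside 0.162% of all genes. Id1 and Id2 were also higher in KO without overlap, by 0.97 and 0.58 on the log2 scale (0.86 and 0.50 without the acinar-rich libraries), and 12.8% of genes were so. Tfrc differed by 1.01 ± 0.40 and overlapped, with an adjusted p of 0.226 in limma, or 0.80 and 0.619 without the acinar-rich libraries. Without replicate 2 of KO, its low mouse, Tfrc differed by 1.55. That mouse opposed the difference, so the value without it is a description with no test.

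In the same comparison of KO with WT on LeuD at CT15, limma called 4 of 92 other pathway genes (4.35%), beside 1.8% of all genes. Of 16 BMP ligands and antagonists 2 rose and none fell. Fst, encoding follistatin, which binds activins, had 236, 306 and 354 normalized counts in KO, against 72.7, 54.0 and 47.7 in WT, with a log2 difference of 2.34 ± 0.24 (SE, adjusted p 0.00601 in limma). Inhba, encoding an activin subunit, differed by 1.03 ± 0.16 (adjusted p 0.0269). The activin receptor gene Acvr2b fell by 1.28 on the log2 scale (adjusted p 0.0357), and Pcbp2, encoding an iron chaperone, fell by 0.90 (adjusted p 0.0208). With the acinar-rich libraries left out, Fst alone of these was called, at 2.38 (adjusted p 0.0405 in limma), and it was called in all 6 fits with 1 mouse left out. Inhba, Acvr2b and Pcbp2 were then at 0.84, -1.17 and -0.75 (adjusted p 0.225, 0.26 and 0.17), and their calls were lost in 4, 5 and 4 of those 6 fits. Summed endothelial genes took 556 to 770 RPM in these KO livers and 837 to 1019 RPM in the WT livers, and their part in these values was not tested.

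At CT15 Hamp overlapped between KO and WT, with differences of 0.09 ± 0.26 on LeuD and -0.14 ± 0.34 on Control (log2, SE). Without the acinar-rich libraries these were 0.06 and 0.14. On Control at CT03 Hamp was lower in KO livers than in WT livers. It had 17424, 9420 and 14766 normalized counts in KO Control livers, against 38227, 18033 and 36385 in WT Control livers, without overlap. The log2 difference was -1.12 ± 0.33 (SE), with an adjusted p of 0.542 in limma and 0.0349 in DESeq2, which called 1 of 10 and 0.623% of all genes. It was -1.19 without the acinar-rich libraries (adjusted p 0.643 in limma). Limma called 0 of 10 genes there, with 2 at an unadjusted p under 0.05 (8.12% of all genes), and edgeR called 0. Of all genes, 0.0137% were called and 7.26% were lower without overlap. On LeuD at CT03, KO and WT livers overlapped in Hamp, and Hamp2 was lower in KO without overlap (-0.74 ± 0.32, adjusted p 0.367 in limma, and -0.34 without the acinar-rich libraries), as were 9.6% of genes. On Control at CT15, Smad6 was lower in KO without overlap, as were 6.72% of genes. In both comparisons limma, edgeR and DESeq2 called 0 of 10, beside 0.0474% of genes called by limma on LeuD at CT03 and 0.0798% on Control at CT15. At an unadjusted p under 0.05 there was 1 of 10 on LeuD at CT03, against 13.6% of genes, and 0 of 10 on Control at CT15, against 5.53% of genes. On LeuD at CT03, Atoh8 differed by -0.39 ± 0.22 with all mice (adjusted p 0.461 in limma) and by -0.63 without replicate 3 of KO. That mouse opposed the difference, so the value without it is a description with no test.

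Differences between diet effects were tested where they did not hold the pair that chose the genes. For KO against WT at CT03 and for CT15 against CT03 in WT, limma, edgeR and DESeq2 called 0 of 10 genes, with 0 at an unadjusted p under 0.05 (13.1% and 6.59% of all genes). Of all genes, 0% and 0.00683% were called. The largest was that of Hamp between genotypes at CT03, at 1.06 ± 0.53 (log2, SE, adjusted p 0.41 in limma), or 1.25 without the acinar-rich libraries (adjusted p 0.577). For KO against WT at CT15, which holds that pair, the values are a description: 1.11 ± 0.35 for Id1, 1.20 ± 0.40 for Id3 and 0.80 ± 0.36 for Smad7, against 0.22 ± 0.47 for Hamp (log2, SE). Without the acinar-rich libraries they were 1.09, 0.88, 0.67 and -0.08.

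Between circadian times, limma called 0 of 10 genes in every comparison of CT15 with CT03, beside 1.48% of genes in WT on Control, 9.61% in WT on LeuD, 0.0407% in KO on Control and 0.845% in KO on LeuD. At an unadjusted p under 0.05 there were 2, 1, 0 and 2 of the 10 genes in that order, beside 17.2%, 25.3%, 12.4% and 16.3% of all genes. In these comparisons edgeR called 0 in each, and DESeq2 called 1 in WT on LeuD, where it called 13.7% of all genes, and 0 in the others. Atoh8 had log2 differences of -0.64 ± 0.20 in WT on LeuD and -0.85 ± 0.31 in WT on Control (CT15 minus CT03, SE, adjusted p 0.0795 and 0.222 in limma). The LeuD difference was -0.52 without the acinar-rich libraries (adjusted p 0.187 in limma). DESeq2 called the LeuD difference (adjusted p 0.0245). Without replicate 3 of WT LeuD at CT15, the mouse that opposed it, the difference was -0.88, a description with no test. Hamp2 was higher at CT15 without overlap in WT on Control, at 1146, 814 and 3055 normalized counts at CT15 and 646, 474 and 776 at CT03, as were 11.4% of genes. In KO on LeuD, Id3 and Smad7 differed by 1.01 ± 0.40 and 0.78 ± 0.34 with all mice (adjusted p 0.268 and 0.309 in limma). Without replicate 3 of CT03 they differed by 1.51 and 1.18, and Id1 differed by 1.06 with it and 1.54 without it. That mouse opposed the differences, so the values without it are a description with no test. With the acinar-rich libraries left out and that mouse kept, Id1, Id3 and Smad7 differed by 0.81, 0.61 and 0.48 (adjusted p 0.804, 0.828 and 0.877 in limma). The CT15 libraries there are those of the pair that chose the genes. That CT03 mouse was the highest of its group in Id1, Id2, Id3, Smad6, Smad7, Atoh8, Bmp6, Hamp and Hamp2, and the lowest in Tfrc.

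Of 92 other pathway genes, limma called 12 (13%) between times in WT on LeuD, beside 9.61% of all genes, and 6 (6.52%) without the acinar-rich libraries, beside 6.53% of all genes. Of 25 iron uptake, storage and export genes, 5 rose and 1 fell at CT15. Slc40a1, encoding ferroportin, the target of hepcidin, rose by 0.55 ± 0.09 (log2, SE, adjusted p 0.00634 in limma). The ligand gene Bmp7 rose by 1.38 ± 0.27 (log2, SE), while Fst fell by 1.03 on the log2 scale (adjusted p 0.0172 and 0.0252 in limma). Without the acinar-rich libraries Slc40a1 and Fst were at 0.53 and -1.20 (adjusted p 0.0196 and 0.0204), and Bmp7, at 1.28, was not called (adjusted p 0.0543). With 1 of the 6 mice left out, Slc40a1 was called in 6 of 6 fits, Bmp7 in 4 and Fst in 1.

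Mice that were high in Id1 were high in Smad7, within groups as well as between them. Over the 24 mice, the 5 genes most like Id1 among 11937 genes with a mean of at least 50 normalized counts were Smad7 (Pearson r 0.89, Spearman rho 0.81), Id2 (0.85, 0.76), Hamp (0.80, 0.81), Igsf8 (0.80, 0.84) and Serpina11 (0.77, 0.73). These mice share diet, genotype and time groups, and the 95th percentile of r over all genes was 0.46. Without the 2 mice farthest from the median of Id1, replicates 2 and 3 of KO LeuD at CT15, r was 0.85 for Smad7, 0.82 for Hamp and 0.80 for Id2. Over the 18 mice outside the pair that chose the genes, Smad7 was again the most like Id1, at r 0.85, with Id2 at 0.81 and Hamp at 0.81. Tfrc was at -0.41.

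With each group's mean taken out, r was 0.86 for Smad7 and 0.84 for Id2, the first and second of the 11937 genes, 0.62 for Hamp and 0.60 for Id3. Tfrc was at -0.58. In 8 of 8 groups the mouse highest in Id1 was also the highest in Smad7, and Smad7 was the 1 gene of 11937 for which this held. In KO Control livers at CT15 this rests on a near tie in Id1, at 348 in replicate 1 and 346 in replicate 3. Smad7 was highest in replicate 1 there, so a small change in Id1 would lower the count. The count was 6 for Id2 and Hamp, 5 for Id3 and Atoh8, 4 for Smad6 and Bmp6, and 2 for Hamp2 and Tfrc. At least 6 was reached by 2.83% of genes and at least 4 by 29.5%.

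**Figure D5:**
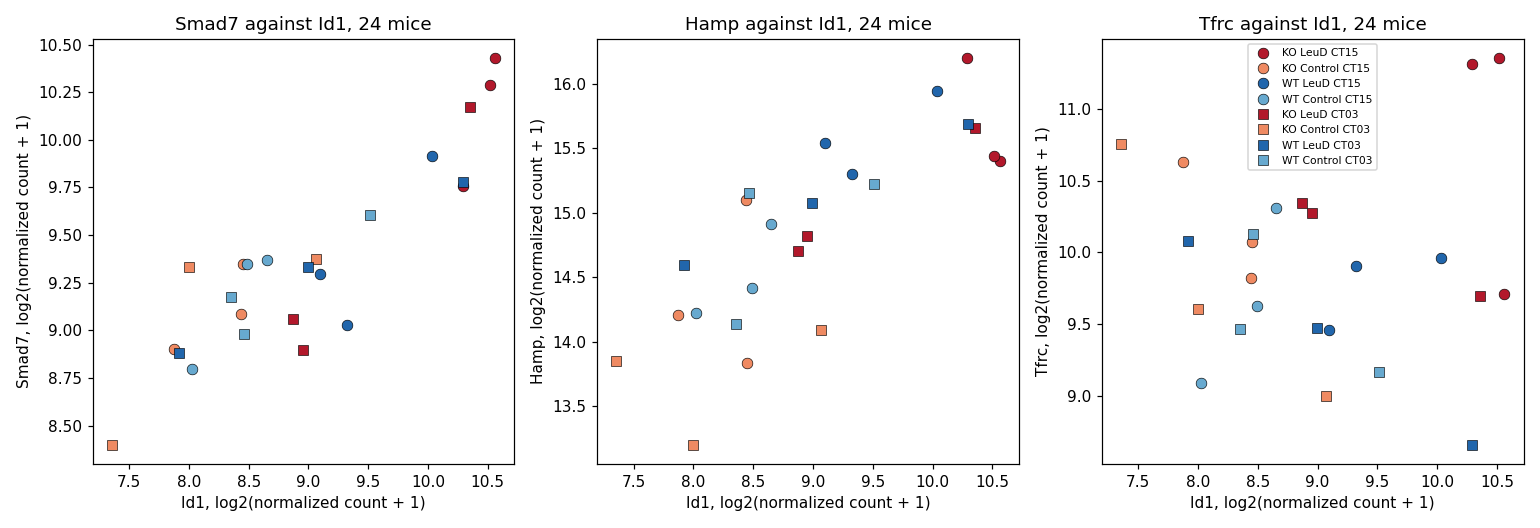
Normalized counts of Smad7, Hamp and Tfrc against Id1 in the 24 mice (log axes), 1 point for each mouse, coloured by group. The points of Smad7 and Hamp run upward with Id1 (r 0.89 and 0.80 on the log2 scale), and those of Tfrc do not (r 0.01).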

How the data were processed

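Liver RNA of 24 mice was sequenced from poly(A)-enriched libraries. The authors' deposited tables, 1 for each of 10 pairwise comparisons, give per-library signal values that are read counts divided by size factors, beside a log2 fold change and p-values of their own, per the file headers; the last 2 were not used. The submitters' processing notes name Trimmomatic 0.36, STAR 2.5.2b, featureCounts, Subread 1.5.2, DESeq2, DESeq and GRCm39; no source used here gives their settings or says how reads shared by genes were handled. Whole reads were recovered from the step size of each column (100% of values within 0.01 of a whole number), and 2 columns whose steps could not be read were taken from other tables of the same library.

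The reads were divided by median-of-ratios size factors over all 24 libraries. Limma 3.58.1 with an intensity trend was run on log2(normalized count + 1), on the 6 libraries of each pair, 12 for differences between diet effects and 18 for the average diet effect, with 2-sided Benjamini-Hochberg adjusted p over all genes of the comparison and a threshold of 0.05. "Called" means past it. The test was tried on simulated data first. Fold changes are on this log2 scale, with the higher pseudocount as an alternative. P-values measure the spread between these mice only. Alternatives were edgeR 4.0.16 and DESeq2 1.42.0 on the recovered reads, limma over all libraries, other scaling, pseudocount and filter settings, the acinar-rich libraries or single replicates left out, and a replicate block. The Hamp and Hamp2 transcripts were aligned with Biopython 1.88.

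The 10 genes, the other pathway lists and the marker lists were chosen with earlier results of these data known. Named are all 10 genes, up to 3 called genes with the lowest p from each other pathway list and comparison, and the 5 genes most correlated with Id1; the genes named in the text are a selection of these, and some items are not reported here.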

Additional observations from a re-analysis of the deposited data

How the results depend on the processing

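Of 282 recomputed counts of called members over 17 comparisons, 254 stayed within 1.5 times the reported count, and no log2 difference that was called changed its sign. Most comparisons had a reported count of 0, so many of the 254 are counts that stayed at 0 and say little on stability. The call of Id3 for genotype on LeuD at CT15 was lost in several alternatives, as given above. With DESeq2 the counts were 1 for CT15 against CT03 in WT on LeuD, beside 13.7% of all genes called. For diet they were 1, 2, 1 and 5 in WT at CT03, WT at CT15, KO at CT03 and KO at CT15, beside 6.52%, 3.52%, 3.49% and 4.71% of all genes. For genotype they were 1 and 4 on Control at CT03 and on LeuD at CT15, beside 0.623% and 7.05%. With limma over all 24 libraries they were 1 and 2 for diet in KO at CT03 and CT15, 0 for genotype on LeuD at CT15 and 1 for the average diet effect, beside 4.32%, 8.53%, 3.91% and 6.72%. The KO pair at CT15 chose the genes, so its counts are a description. A pseudocount of 10 gave 2, and leaving out the acinar-rich libraries 0, for genotype on LeuD at CT15, beside 1.87% and 0.162% of all genes. With single mice left out, the counts ran from 0 to 1 for time in WT on LeuD and for genotype on LeuD at CT03, from 0 to 3 for time in KO on LeuD, from 0 to 2 for diet in KO at CT15 and for genotype on LeuD at CT15, and from 2 to 3 for the average diet effect. The shares of all genes called in those fits are not reported here, so the ranges are a description. The cause of these changes was not tested. Whether replicate numbers pair the mice is not said by the labels, and the main fits used no pairing. In 0 of 12 comparisons was every same-numbered pair correlated above 0.1 in its deviations, and single pairs ran from -0.377 to 0.384. With 3 mice in a group this cannot exclude a pairing. With the replicate block, 0 members were called for diet in KO at CT15 and for genotype on LeuD at CT15, beside 0% and 0.223% of all genes. Every member had at least 155 reads in each library. The parts of read depth, of the number of mice and of the spread between them in these values were not tested.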
